A study of Mus musculus with 6 samples.

Results

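The genes described here are 10 genes of blood vessels: the secreted growth factor gene Vegfa, the receptor genes Kdr, Flt1, Tek, Tie1 and Eng, the cell contact genes Pecam1, Cdh5 and Cldn5, and the clotting factor gene Vwf. They were chosen by symbol, and every probe set annotated to them was taken, 13 of the 12422 probe sets used, for 10 of the 8251 genes named. The samples were pools of entire uteri from C57Bl/6 females, 10 to 11 weeks of age, all ovariectomised and killed a week later. One group received vehicle under the skin and was killed 24 h later. The other 5 groups received 0.05 µg of estradiol per mouse and were killed after 1 h, 3 h, 6 h, 12 h and 24 h. Each group was read on 1 Affymetrix U74Av2 array, and the labels speak of 10 mice, which could be per group or in all.

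Vegfa is secreted by many cell types and acts on endothelial cells, mainly through the receptor tyrosine kinase encoded by Kdr, while the Flt1 product binds it tightly and signals weakly. Tek is the receptor of the angiopoietins, and Tie1 is its partner. Cdh5, Cldn5 and Pecam1 encode proteins of the contacts between endothelial cells, Eng a coreceptor for ligands of the TGF-beta family, and Vwf a glycoprotein that endothelial cells and platelets store and release. Estrogen is known to make uterine vessels leaky within hours and to be followed by vessel growth.

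Signal is the MAS5 value of a probe set on a linear scale, and a signal under 142.8, the 40th percentile of all values, was treated as below the floor. Ratios were taken after raising such values to the floor, so a fold against one of them is a lower bound and is written "at least". All 10 genes reached the floor on at least 1 array, and 8 did so on all 6. With 1 array per group no error could be estimated and nothing was tested, so each difference describes a pair of arrays, and the order of similar levels is not established. In whole uterus, fewer cells of a type and less RNA per cell cannot be told apart. The vehicle mice were killed 24 h after injection, and the estradiol array of 24 h is the one matched to them in time. Between the 1 h and vehicle arrays, 98.7% of the 4945 genes with a brighter signal from the floor to 1500 were within 2-fold, and 95% were within 1.62-fold.

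The array labelled 3 h is given apart, because its markers went against the label. Of 13 uterine epithelium markers, 2 reached the floor there, against 11 to 12 on the other 5 arrays, with a summed signal of 988 against 12312 to 19543. Of 12 pericyte and smooth muscle markers, 10 reached the floor there, with a summed signal of 8678 against 42798 to 61463. Among them the smooth muscle gene Cnn1 had a signal of 11.1, against 1902 to 5402 on the other arrays, while Des was higher there than in vehicle, at 917.7 against 581.2. Summed red cell markers were 46213 there, against 2267 to 4054, and summed leukocyte markers 33117, against 6254 to 9419. Its rank correlation with the other arrays over all probe sets was 0.843 to 0.857, while those 5 correlated with each other at 0.929 to 0.968.

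These sequences are shown because their genes had the highest and one of the lowest ratios at 6 h, the region before the start of Vegfa and that of Cldn5. They are the 250 bases upstream of a RefSeq transcript start on GRCm38.p6, 5′ to 3′ on the gene's strand, chr17:46032378-46032627 on the minus strand for Vegfa and chr16:18776597-18776846 on the plus strand for Cldn5. Capitals mark matches to 6 short motifs on either strand, which do not overlap here.
Vegfa: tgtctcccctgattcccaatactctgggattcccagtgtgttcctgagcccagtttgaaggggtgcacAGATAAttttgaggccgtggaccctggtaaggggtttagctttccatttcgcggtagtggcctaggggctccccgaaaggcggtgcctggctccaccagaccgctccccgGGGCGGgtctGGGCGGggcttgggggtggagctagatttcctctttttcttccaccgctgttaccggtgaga
Cldn5: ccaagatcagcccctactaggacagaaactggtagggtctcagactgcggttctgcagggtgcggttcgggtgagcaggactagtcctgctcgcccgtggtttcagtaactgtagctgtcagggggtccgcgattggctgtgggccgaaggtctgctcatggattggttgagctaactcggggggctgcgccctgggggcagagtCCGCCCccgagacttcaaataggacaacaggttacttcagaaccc

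The Vegfa window held the GC box, GGGCGG, beginning 72 and 62 bases before the start, and a GATA motif, AGATAA, at 182 bases. The Cldn5 window held 1 GC box on the other strand, beginning 45 bases before the start. Neither window held the estrogen receptor core motif AGGTCA, the AP-1 motif TGANTCA, the hypoxia motif ACGTG or the ETS motif CCGGAA. Of all 32851 promoter windows of this length, 32.7% held the GC box, 10.0% the GATA motif, 14.0% the estrogen receptor motif, 6.7% the AP-1 motif, 16.6% the hypoxia motif and 12.0% the ETS motif. Windows were found for 7 of the 10 genes, and none of the 7 held the estrogen receptor motif, the AP-1 motif or the hypoxia motif. A match is a string of letters, not a shown binding site.

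Vegfa (chr17:46016993-46032377), the ligand, was the gene of the 10 with the highest ratio at 1, 6 and 12 h. Its single probe set had a signal of 229 in vehicle, 404 after 1 h, 1047 after 6 h, 547 after 12 h and 297 after 24 h. The signal was thus higher than vehicle on all 4 of these arrays, with its peak at 6 h and most of the difference gone at 24 h. It was 1.76-fold higher after 1 h, 4.57-fold after 6 h, 2.38-fold after 12 h and 1.29-fold after 24 h. At 6 h, 99.4% of the 6562 genes measured on at least 1 array had a lower ratio than Vegfa, and at 1 h 98.4% had. Between later arrays, it was 3.53-fold lower at 24 h than at 6 h. The 12 h log2 ratio of 1.25 became 0.85 with vehicle and 1 h averaged as the baseline and 0.63 with values raised to the 60th percentile, both under 2-fold. With the averaged baseline the 24 h ratio had the opposite sign, at a log2 value of -0.04.

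**Figure D1:**
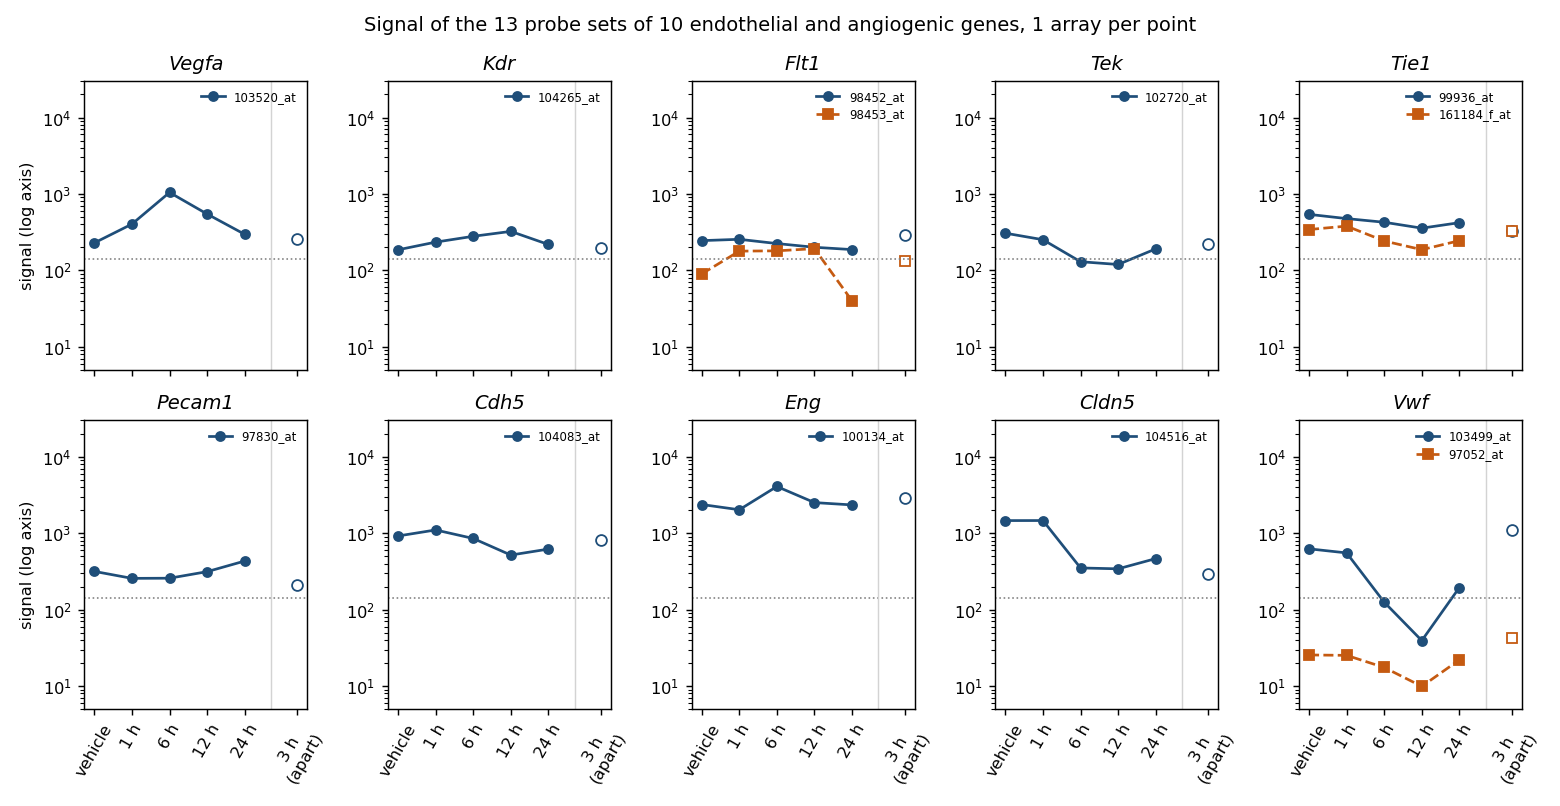
Signal (log axis) of each probe set on each array, for vehicle and 1, 6, 12 and 24 h after estradiol, with the array labelled 3 h as open symbols at the right. The dotted line is the floor of 142.8. Vegfa peaks at 1047 at 6 h, while Cldn5 and the brighter Vwf probe set are below their vehicle signal from 6 h on.

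The receptors of Vegfa differed less from vehicle than the ligand. Kdr (chr5:75932827-75979072), its main signalling receptor, had a signal of 186 in vehicle, 235 after 1 h, 280 after 6 h, 324 after 12 h and 219 after 24 h. Its highest ratio, 1.74-fold, was at 12 h, and none of the 4 reached 2-fold. The 12 h signal was 1.16-fold above that of 6 h, so which was the higher is not established. With values raised to the 60th percentile the log2 ratio of Kdr was 0.00 at all 4 times, as its signals lay under that floor. Flt1 (chr5:147561604-147726438), the high-affinity receptor that can act as a decoy, is read by 2 probe sets. The brighter, 98452_at, had 245 in vehicle, 255 after 1 h, 225 after 6 h, 201 after 12 h and 187 after 24 h, at most 1.31-fold from vehicle. The dimmer, 98453_at, was below the floor in vehicle at 90.0 and at 24 h, and above it at 1, 6 and 12 h with 179, 180 and 193. The 2 Flt1 probe sets went opposite ways at 6 and 12 h. With the median of both, the log2 ratio of Flt1 was 0.11 at 6 h and 0.07 at 12 h, against -0.13 and -0.29 for the brighter one.

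The angiopoietin receptor gene Tek was at least 2-fold below vehicle at 6 and 12 h and its partner Tie1 was not. Tek (chr4:94739086-94874976) had a signal of 307 in vehicle, 252 after 1 h, 130 after 6 h, 120 after 12 h and 191 after 24 h. The 6 and 12 h arrays lay below the floor, so Tek was at least 2.15-fold lower at both times. At 24 h it was 1.61-fold lower and above the floor again. Because the vehicle signal is itself near the floor, this call was lost with a higher floor, at which Tek was not measured on either array. Against the mean of vehicle and 1 h it was just short of 2-fold, with a log2 ratio of -0.96 at both times. Tie1 (chr4:118471191-118489849), an orphan receptor that modulates Tek, had 541 in vehicle, 476 after 1 h, 427 after 6 h, 357 after 12 h and 421 after 24 h by its brighter probe set. Its other probe set, 161184_f_at, of a type that can match several related transcripts, had 343, 380, 243, 187 and 245 in the same order. Both Tie1 probe sets were lowest at 12 h, 1.51-fold and 1.84-fold below vehicle, and neither was 2-fold lower at any of the 4 times.

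Eng (chr2:32646595-32682669) encodes endoglin, a coreceptor that binds TGF-beta and BMP ligands with the endothelial receptor Acvrl1. Its signal was 2368 in vehicle, 2022 after 1 h, 4073 after 6 h, 2509 after 12 h and 2339 after 24 h. The 6 h array was therefore 1.72-fold above vehicle and stood apart, since the 1, 12 and 24 h arrays lay within 1.17-fold of vehicle. Eng shared its 6 h maximum with Vegfa, but unlike Vegfa it was back within 1.06-fold of vehicle at 12 h.

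The genes of endothelial contacts did not share a pattern. Cldn5 (chr16:18776847-18778262), which encodes the claudin that seals endothelial tight junctions, had a signal of 1459 in vehicle, 1461 after 1 h, 351 after 6 h, 341 after 12 h and 464 after 24 h. The vehicle and 1 h arrays were alike, and the 3 later arrays were all less than a signal of 500. Cldn5 was 4.16-fold lower after 6 h, 4.28-fold after 12 h and 3.14-fold after 24 h, and after 24 h 0.4% of measured genes had a lower ratio. Cdh5 (chr8:104101613-104144504), the cadherin of endothelial adherens junctions, had 918 in vehicle, 1100 after 1 h, 852 after 6 h, 517 after 12 h and 619 after 24 h. It was near vehicle at 6 h, when Cldn5 was already at its lower level, and 1.78-fold lower at 12 h. Pecam1 (chr11:106654213-106715281), an adhesion molecule of endothelium, platelets and leukocytes, had 316 in vehicle, 256 after 1 h, 257 after 6 h, 314 after 12 h and 432 after 24 h. It was the highest of the 10 after 24 h relative to vehicle, at 1.37-fold higher, and 1.68-fold higher after 24 h than after 6 h.

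Vwf (chr6:125552948-125686679) encodes the glycoprotein that tethers platelets to damaged vessel walls and carries clotting factor VIII. Its brighter probe set, 103499_at, had a signal of 623 in vehicle, 551 after 1 h, 125 after 6 h, 39.3 after 12 h and 194 after 24 h. The 6 and 12 h arrays lay below the floor, so Vwf was at least 4.37-fold lower at both, and it was 3.21-fold lower at 24 h. The second probe set, 97052_at, lay below the floor on all 6 arrays, with 9.9 to 42.5, and so gave no ratio. The Vwf result therefore rests on 1 probe set. With the median of both probe sets the log2 ratio was -1.06 at 6 and 12 h and -0.84 at 24 h, the last under 2-fold. With values raised to the 60th percentile it was -0.82 at all 3 times, so no Vwf call remained. Platelets also hold Vwf transcripts, and their part in the Vwf signal was not tested. Of the 10 platelet markers listed, 4 were on the array, and none of these reached the floor in vehicle or at 1, 6, 12 or 24 h.

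**Figure D2:**
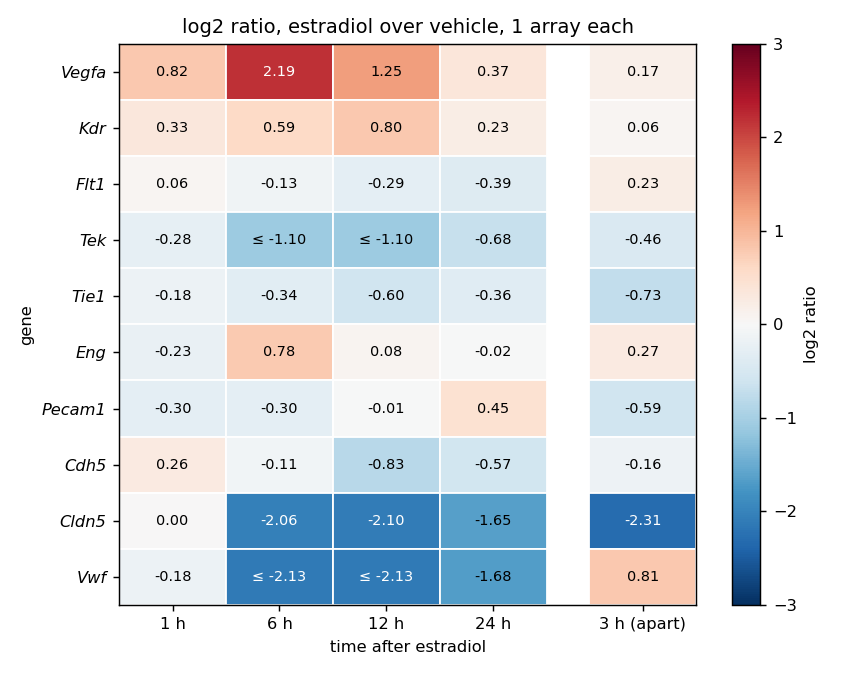
Log2 ratio of each gene (rows) at each time after estradiol (columns), estradiol over vehicle, by its brightest probe set, with the array labelled 3 h apart. Signs of inequality mark bounds set by the floor; Vegfa reaches 2.19 at 6 h, and Cldn5 and Vwf are at -1.65 or lower at 6, 12 and 24 h.

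Counted at 2-fold, none of the 10 genes was away from vehicle at 1 h, where 0.853% of all measured genes were higher and 0.351% lower. At 6 h, 1 was higher (Vegfa) and 3 were lower (Cldn5, Tek and Vwf), where 6.34% of all measured genes were higher and 8.35% lower. At 12 h the same 4 genes were called, where 6.16% of all were higher and 6.93% lower. At 24 h none was higher and 2 were lower, Cldn5 and Vwf, where 3.41% of all were higher and 3.54% lower. The median log2 ratio of the 10 genes was -0.09 after 1 h, -0.21 after 6 h, -0.44 after 12 h and -0.37 after 24 h, while the median of all measured genes was 0.00 at each time. Without Vegfa, the median of the 9 endothelial genes was -0.18, -0.30, -0.60 and -0.39 at these times. Cldn5, Vwf, Tek, Tie1, Cdh5 and Flt1 by its brighter probe set were below vehicle at 6, 12 and 24 h. Kdr was above vehicle at these times. Pecam1 had log2 ratios of -0.30, -0.01 and 0.45, and Eng of 0.78, 0.08 and -0.02. The 6 genes never called, Kdr, Flt1, Tie1, Pecam1, Cdh5 and Eng, were within 2-fold of vehicle at all 4 times.

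**Figure D3:**
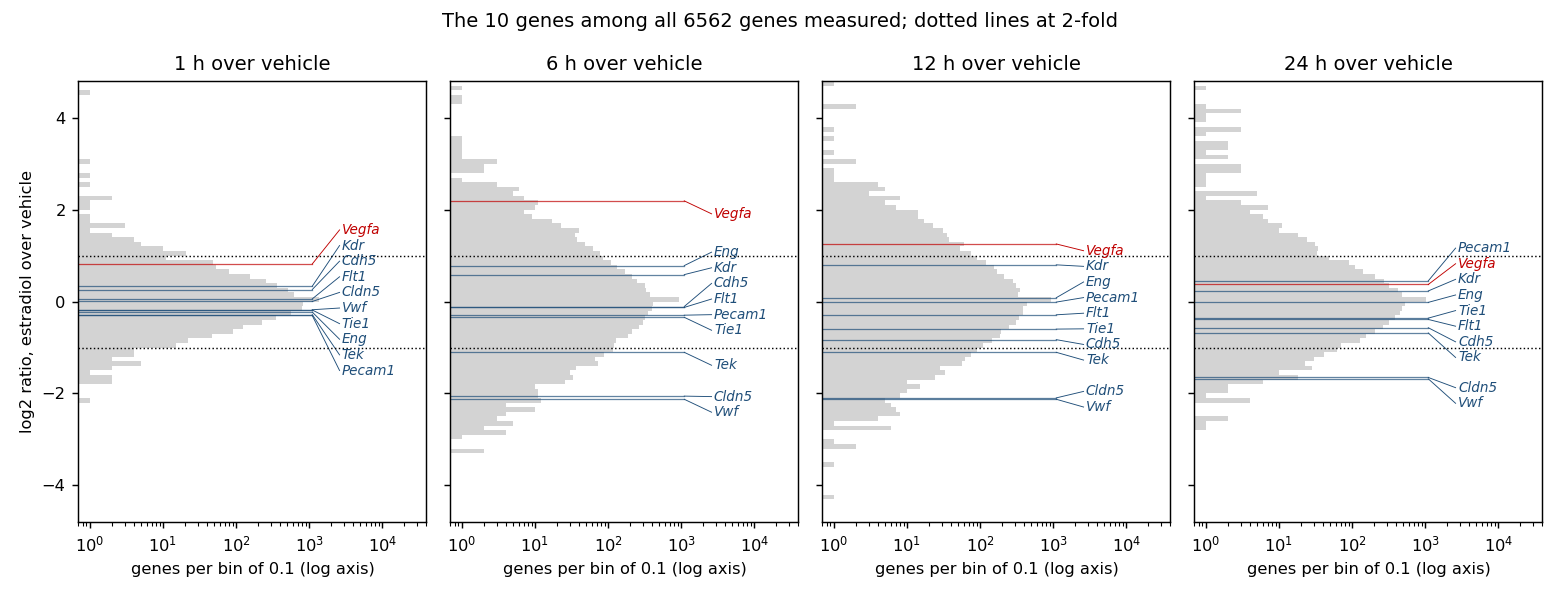
Histogram of the log2 ratio (vertical axis) of the 6562 genes measured, with the number of genes on a log axis, at each time over vehicle; lines mark the 10 genes, Vegfa in red. At 6 h Vegfa lies among the highest ratios and Cldn5 and Vwf among the lowest, while the other 7 lie between log2 ratios of -1.10 and 0.78.

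Markers of neighbouring cell types moved on the same arrays, and their part in these results was not tested. The 12 pericyte and vascular smooth muscle markers on the array summed to a signal of 52099 in vehicle, 42798 after 1 h, 47646 after 6 h, 54296 after 12 h and 61463 after 24 h, and 11 to 12 of them reached the floor. Most of the vehicle sum came from the smooth muscle genes Acta2, Myh11, Mylk and Tagln, at 10350, 9706, 13205 and 10079. In whole uterus this sum cannot be assigned to vessels. Of the 12 markers, 1 was 2-fold below vehicle after 6 h, 3 after 12 h and 2 after 24 h, and 1 was 2-fold above it after 12 h. Among all measured genes, 8.35%, 6.93% and 3.54% were lower at these times and 6.34%, 6.16% and 3.41% higher. Kcnj8, a potassium channel of pericytes, was 3.61-fold lower after 6 h, at least 6.71-fold after 12 h and 3.17-fold after 24 h. Also past 2-fold lower were Smtn and Abcc9 after 12 h, 2.42-fold and 2.04-fold, and Pdgfrb after 24 h, 2.04-fold. Cnn1 was 1.58-fold, 2.06-fold and 1.84-fold higher after 6, 12 and 24 h. The 5 lymphatic endothelium markers summed to 2026 in vehicle, 1954 after 1 h, 1436 after 6 h, 1079 after 12 h and 1181 after 24 h. Their defining transcription factor Prox1 lay below the floor on every array. Reln alone of these markers was 2-fold below vehicle at 6, 12 and 24 h. It had 815.6 in vehicle, 302.5 after 6 h, 255.5 after 12 h and 303.7 after 24 h, the largest fall in the list. Lyve1 was higher than vehicle at 6 h, with 446.5 against 298.3, and lower after 12 h and 24 h, with 217.5 and 185.9. The lower lymphatic sum therefore does not describe every gene of the list. Summed epithelial markers were 13938 in vehicle, 12312 after 1 h, 13912 after 6 h, 14943 after 12 h and 19543 after 24 h. Summed stromal markers were 70888, 62670, 41294, 55917 and 91110 at the same points. The stromal list held 1 gene 2-fold higher and 5 lower at 6 h, none and 4 at 12 h, and 3 and none at 24 h. The shares of all measured genes at these times are those given above for the pericyte list. The 3 higher at 24 h were the collagen genes Col1a1, Col1a2 and Col3a1, while Dcn was 1.76-fold lower there, and the median log2 ratio of the 13 stromal genes was -0.05. Red cell markers summed to 3170, 4054, 3945, 2556 and 2267, and leukocyte markers to 8707, 9419, 6254, 6479 and 7629.

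**Figure D4:**
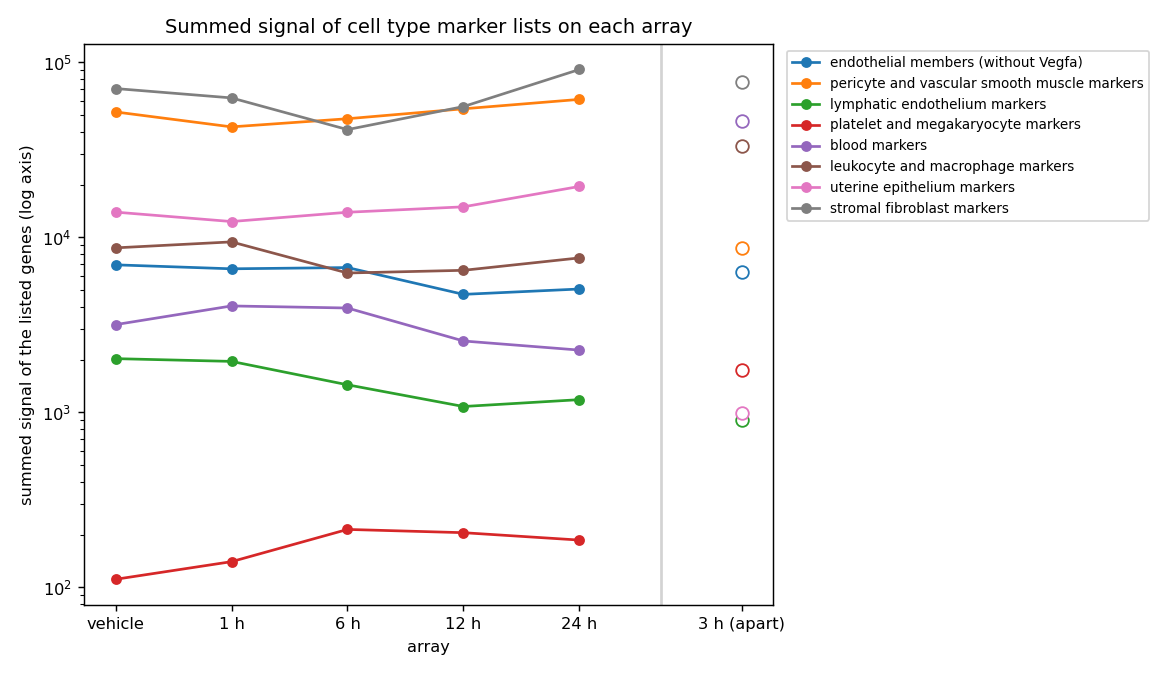
Summed signal (log axis) of each cell type marker list on each array, with the array labelled 3 h as open circles at the right. On that array epithelial markers sum to 988 and red cell markers (blood markers in the legend) to 46213.

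On the array labelled 3 h, the genes were read against the marker shifts given above. Vwf had a signal of 1095 there, against 623 in vehicle, 1.76-fold higher. The 4 platelet markers summed to 1739 against 111, where 3 reached the floor on this array and none in vehicle, so the 111 holds only values below the floor. The part of platelets in the Vwf value was not tested. Cldn5 had 295 against 1459, 4.95-fold lower, and was the only 1 of the 10 past 2-fold, where 10.8% of all measured genes were higher and 12.3% lower. Vegfa had 259 against 229 and Kdr 194 against 186, both within 1.13-fold. Tie1 had 326 against 541 and Pecam1 210 against 316, 1.66-fold and 1.50-fold lower. Eng, Flt1, Tek and Cdh5 lay within 1.38-fold of vehicle. Because most uterine epithelial markers were below the floor there and most other marker sums lay apart, these values were not joined to the time course. The stromal sum was an exception, at 77339 against 41294 to 91110 on the other 5 arrays. The summed signal of the 9 endothelial genes without Vegfa was another, at 6308 against 4721 to 6964. Of the 13 stromal markers, 8 reached the floor there, against 12 to 13 on the others.

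Other genes of the same pathways were taken from lists of vascular genes, and are counted after raising to the floor, so a ratio that is a bound may be larger than counted. Of 9 VEGF ligands, receptors and coreceptors measured, Vegfa alone was 2-fold higher and Vegfd alone 2-fold lower at 6 h. At that time 6.34% of all measured genes were higher and 8.35% lower. Vegfd, a ligand of lymphatic growth, had 407 in vehicle, 396 after 1 h, 105 after 6 h, 269 after 12 h and 443 after 24 h, at least 2.85-fold lower after 6 h. It was lowest on the array where Vegfa was highest. Nrp1, a coreceptor of Kdr, had 1446 at 6 h against 772 in vehicle, 1.87-fold higher, the same time as the Vegfa and Eng maxima. Vegfb and Flt4, which encodes the receptor of lymphatic endothelium, were at most 1.55-fold and 1.51-fold from vehicle. Of the 4 angiopoietin and Tie genes measured, Tek was the only 1 past 2-fold. It was lower at 6 and 12 h, where 8.35% and 6.93% of all measured genes were.

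Of 17 endothelial junction and adhesion genes measured, 1 was higher and 2 lower after 6 h, none and 2 after 12 h, and none and 1 after 24 h. Of all measured genes, 6.34% lay 2-fold above vehicle and 8.35% below after 6 h, 6.16% above and 6.93% below after 12 h, 3.41% above and 3.54% below after 24 h. The junction list's counts are near these shares. Besides Cldn5, the gene lower at 6 and 12 h was Tjp1, a scaffold protein of tight junctions that epithelia also use. It had 878 at 6 h and 874 at 12 h against 2374 in vehicle, 2.70-fold and 2.72-fold lower, so Tjp1 and Cldn5 were lower at the same times. Icam1, a leukocyte adhesion molecule, had 519 at 6 h against 208 in vehicle, 2.50-fold higher, and 220 at 12 h. The vessel markers Cd34 and Emcn stayed nearer to vehicle than Cldn5 did, at most 1.44-fold and 1.46-fold away. Cd34 was 1963 at 12 h against 1362 in vehicle, while Cldn5 was 341 against 1459.

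The haemostasis and vascular tone list had 2 genes 2-fold higher and 1 lower of 13 at 6 h, and the 1 lower was Vwf. At that time 6.34% of all measured genes were higher and 8.35% lower. Nos3, the endothelial nitric oxide synthase, was below the floor in vehicle at 59.0, had 674 after 6 h and 275 after 12 h, and was below it again after 24 h at 67.2. It was thus at least 4.72-fold higher at 6 h, at the Vegfa maximum, on the array where Vwf was below the floor. Procr, the endothelial receptor of protein C, had 945 at 6 h against 272 in vehicle, 3.47-fold higher, and 250 at 24 h. Thbd, which encodes thrombomodulin, had 309 at 12 h against 558 in vehicle, 1.81-fold lower. Genes of endothelium in this one list therefore lay on both sides of vehicle on the 6 h array. Ramp2, which forms the adrenomedullin receptor on endothelium, was 1.62-fold higher at 6 h and 1.78-fold at 12 h.

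Of 9 TGF-beta and BMP receptor pathway genes measured around Eng, none was 2-fold higher and 1 lower at 6, 12 and 24 h. Among all measured genes, 6.34%, 6.16% and 3.41% were higher and 8.35%, 6.93% and 3.54% lower at these times. The 1 lower gene was Id3, a target of BMP signalling, with 583 after 6 h, 762 after 12 h and 695 after 24 h against 1948 in vehicle. Id3 was 3.34-fold lower at 6 h, when Eng itself was 1.72-fold higher. Id1, another target of BMP signalling in the list, was within 1.22-fold of vehicle at 1, 6, 12 and 24 h.

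**Figure D5:**
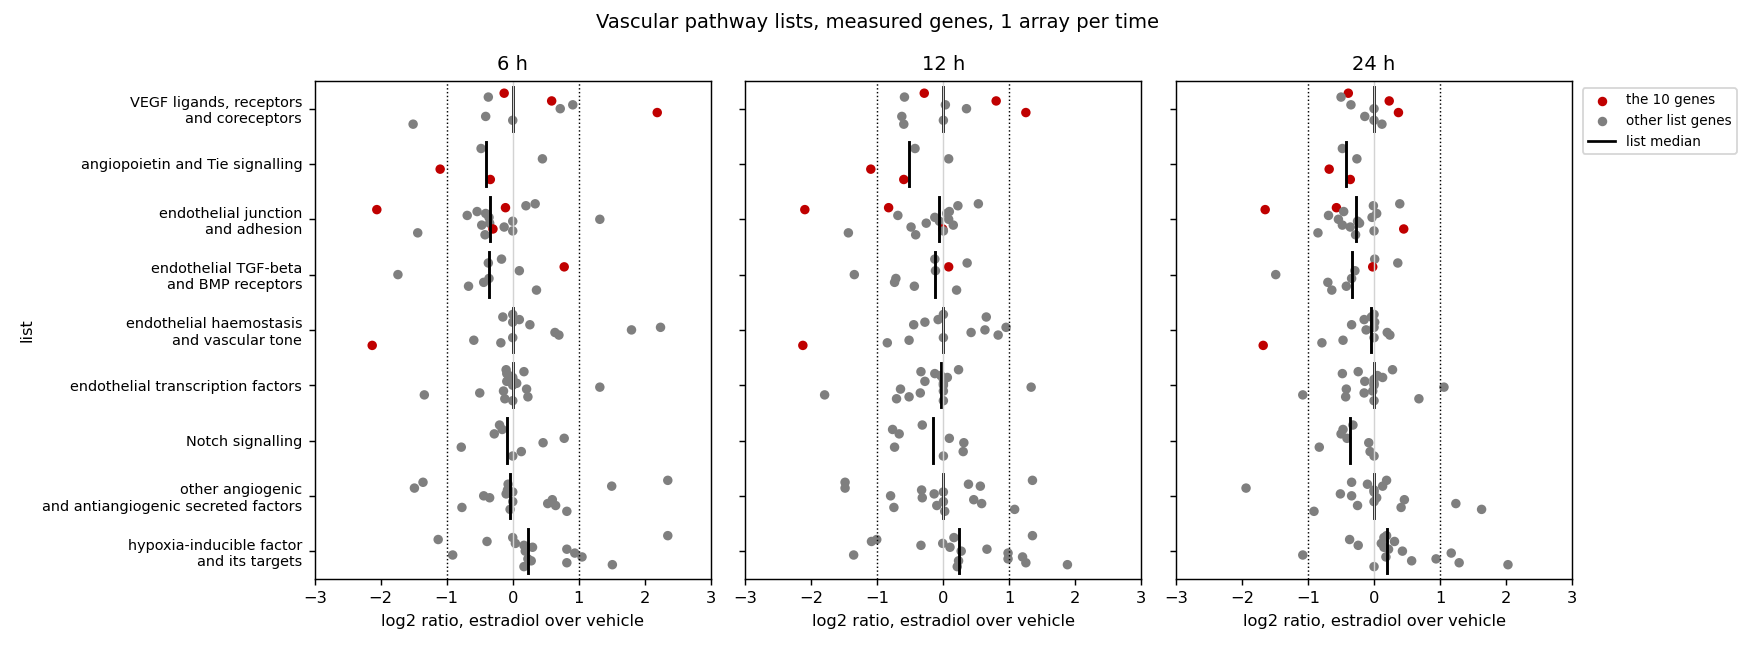
Log2 ratio (horizontal axis) of every measured gene of each vascular list at 6, 12 and 24 h over vehicle; red points are the 10 genes, bars are list medians and dotted lines mark 2-fold. At 6 h the haemostasis list spans Nos3 at 2.24 or higher and Vwf at -2.13 or lower, and genes under the floor in both groups are drawn at 0.

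Among the 4778 bright genes, those with the nearest course to Vegfa and to Cldn5 were found by the Euclidean distance over the log2 ratios at 1, 6, 12 and 24 h. These are likenesses over 4 ratios that share 1 vehicle array. Nearest to Vegfa were the AMP deaminase gene Ampd3 at a distance of 0.41, the chaperonin gene Cct6a at 0.51 and the receptor kinase gene Ror2 at 0.55. Ampd3 had 450 in vehicle, 620 after 1 h, 1949 after 6 h, 1151 after 12 h and 524 after 24 h. Nearest to Cldn5 were Bcl2l11, which encodes a protein that promotes apoptosis (0.33), the cadherin gene Cdh16 (0.34) and Rarres2, which encodes chemerin (0.36). For Vwf and Tek the ratios at 6 and 12 h are bounds, so no nearest gene is given.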

How the data were processed

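One array of pooled uterine RNA per group was used, 6 in all. Per the submitters' processing notes, the authors made the values with MAS5, whose version and settings are not given in the sources used here. The deposited unit is signal intensity, 1 linear value per probe set and array, with no detection call. From the values, each array had a trimmed mean of 500.2 to 500.3 (2% removed from each end).

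In the re-analysis, 66 control probe sets were left out, arrays were rescaled to the same trimmed mean, values were raised to the 40th percentile and log2 was taken. Array annotation gave 1 symbol to 10833 probe sets, several to 396 and none to 1193, and symbols were updated through RefSeq (GRCm38.p6). Where a gene had several probe sets, the brightest on average (mean log2) stood for it. The number of arrays limits the precision. No test was run; 2-fold was the threshold, and 8 alternatives were computed. The code was tested on simulated data with Python 3.11.15 and numpy 2.4.6.

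The members, lists and threshold were chosen with earlier results of these data known. Beyond the 10 genes with all their probe sets, a rule picked up to 4 genes per list. These had the largest ratios and a signal reaching the 60th percentile (352.65). The text names some of them and leaves out others, a choice that the rule did not set. It also names the 3 nearest in course to each called gene with no ratio at the floor. Prox1, Des, Id1, Col1a1, Col3a1, Pdgfrb, Acta2, Myh11, Mylk and Tagln fall outside this rule and were named after their values were seen.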

Additional observations from a re-analysis of the deposited data

How the results depend on the processing

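Over 8 alternatives and 5 times, 370 of the 380 values of single genes kept their side of 2-fold, and the other 10 were no longer past it. Part of this count was fixed in advance. For a gene with 1 probe set, the median over probe sets is the same value. Leaving out the array labelled 3 h only moved the floor from 142.8 to 144.3. Most values were also within 2-fold at the start, so the count is not a measure of robustness. With the floor at the 60th percentile, 1 gene was lower after 6 h, 1 after 12 h and 1 after 24 h, none (0) was higher after 12 h, and the median log2 ratio was 0.00 after 6 h, 0.00 after 12 h and -0.01 after 24 h. Cldn5 was the gene that remained lower, and Vegfa had 0.63 at 12 h. This floor exceeds the vehicle signals of Vegfa and Tek and the later signals of Vwf, so it shrinks their ratios by construction, to 1.57 for Vegfa at 6 h and to -0.82 for Vwf at 6, 12 and 24 h. With vehicle and 1 h averaged as the baseline, 0 genes were higher at 12 h (Vegfa at 0.85) and the median on the array labelled 3 h was -0.26; with arrays scaled to the same median that value was 0.08. With the median over a gene's probe sets, 1 gene was lower at 24 h. Medians that moved by under 0.1 are not listed. The sign was opposite under at least 1 alternative for 6 of the 40 gene and time pairs outside the array labelled 3 h, none with a log2 ratio beyond 0.37 in size. No paired analysis was possible because each group has 1 array.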

Other observations

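Of 17 endothelial transcription factor genes measured, 1 was 2-fold higher and 1 lower at each of 6, 12 and 24 h. Of all measured genes, 6.34% lay 2-fold above vehicle and 8.35% below after 6 h, 6.16% above and 6.93% below after 12 h, 3.41% above and 3.54% below after 24 h, so 1 of 17 is near these shares. Sox17, a factor of arterial endothelium that uterine epithelium also uses, had 3517 in vehicle, 3145 after 1 h, 1389 after 6 h, 1010 after 12 h and 1659 after 24 h. It was 2.53-fold, 3.48-fold and 2.12-fold lower at the 3 later times, when Cldn5 and Vwf were lower too. Klf4, a factor of endothelium and epithelium, was 2.16-fold higher at 1 h, when none of the 10 genes was past 2-fold, and 2.52-fold higher at 12 h. None of the 8 Notch genes measured was shown to be past 2-fold at 1, 6, 12 or 24 h, but some of their ratios are bounds set by the floor. Notch2 was 1.78-fold lower at 24 h.

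Among 17 other secreted factors measured, 2 were 2-fold higher and 2 lower at 6 h, where 6.34% of all measured genes were higher and 8.35% lower. Adm, the vasodilator peptide adrenomedullin, had 186 in vehicle, 1067 after 1 h, 947 after 6 h, 473 after 12 h and 212 after 24 h. Adm was thus 5.75-fold above vehicle at 1 h, when Vegfa was 1.76-fold above it, and both were within 1.29-fold of vehicle at 24 h. Ccn1, a matrix protein that promotes vessel growth, was at least 2.84-fold higher at 6 h, while Ccn2 was 2.80-fold lower there and 3.84-fold at 24 h. Of 17 genes of the hypoxia-inducible factor and its targets, 3 were higher and 1 lower after 6 h, 4 and 3 after 12 h, and 3 and 1 after 24 h, beside 6.34% and 8.35%, 6.16% and 6.93%, and 3.41% and 3.54% of all measured genes at these times. Adm belongs to this list as well as to that of the secreted factors. The glucose transporter gene Slc2a1 had 153 in vehicle, 166 after 1 h and 435 after 6 h. It had 565 after 12 h and 623 after 24 h, so its highest signal came after 24 h, when Vegfa was at 297. Pgk1 was 2.39-fold and 2.45-fold higher after 12 and 24 h. Ndrg1 went the other way, 1.88-fold, 2.57-fold and 2.11-fold lower after 6, 12 and 24 h.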
